A study of Mus musculus with 71 samples.

Results

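The genes described here encode the eukaryotic translation initiation factors eIF1 to eIF6 and the kinases that phosphorylate eIF2. They were chosen by name, as every gene of the normalised whole-blood table whose symbol begins with Eif and a digit from 1 to 6, which gave 53 members of 10508 genes. The members fall into 9 sets, namely eIF1 and eIF1A (5 genes), eIF2 (3), its exchange factor eIF2B (5), the eIF2 kinases (4), eIF3 (14), eIF4F and its helpers (8), the 4E homologues and 4E-binding proteins (6), eIF5, eIF5A, eIF5B and eIF6 (5), and 3 factors outside these complexes. A further 32 symbols of the deposited count table match the name but were not carried into the normalised table, and 31 of them had a mean below 5 counts a mouse.

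Blood RNA was sequenced from female Balb/c AnNRj mice that were 6 weeks old at inclusion. Control mice (n = 11) received intradermal PBS, and all other groups received intradermal HOCl, an oxidant that induces a model of systemic sclerosis with skin and lung fibrosis, on 5 days per week for 6 weeks. The HOCl group (n = 12) received HOCl alone, and the remaining groups received HOCl with D11, E07, D06 or BPR21 (n = 12 each). D11 and E07 are monoclonal antibodies (mAbs) against galectin-3, a lectin that binds cell-surface sugars, and were dosed at 20 mg/kg under the skin, with an interval of 5 days. What D06 and BPR21 are was not stated in the sources used here. The controls carry the same genotype entry as the other mice in the sample labels, so their group was read from the titles. The model is chemical, with no transgene, and each library is 1 mouse. Per the study's methods, separate cages were used for the experimental and control groups, so effects of cage and group cannot be told apart. One HOCl mouse (mouse 8) has counts only, so 11 HOCl mice enter the tests on normalised values. In that mouse, 11 of the 53 members lay outside the range of the other HOCl mice. The share of all genes outside that range is not given, so this count cannot be read as particular to the members.

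Translation begins when eIF2 carries the initiator tRNA to the small ribosomal subunit, where eIF1, eIF1A, eIF3 and eIF5 let the complex scan the mRNA for a start codon, and eIF4F brings in capped mRNA. At the start codon eIF5 makes eIF2 hydrolyse its GTP, eIF5B joins the large subunit, and eIF2B reloads eIF2 with GTP. Under stress, 4 kinases phosphorylate the alpha subunit of eIF2 and so block eIF2B, which lowers most protein synthesis and raises translation of a few stress mRNAs. Eif2ak1 (HRI) responds to low haem and is best known from red cell precursors, where it matches globin synthesis to haem supply. Eif2ak2 (PKR) binds double-stranded RNA and is induced by interferon, Eif2ak3 (PERK) senses unfolded protein in the endoplasmic reticulum, and Eif2ak4 (GCN2) senses uncharged tRNA.

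The members on which the results turn were Eif1 (chr11:100210670-100212922), Eif5 (chr12:111502067-111514340) and Eif2ak1 (chr5:143803530-143843661), all on the plus strand of GRCm39, with Eif2ak2 on the minus strand (chr17:79159972-79190012). The 250 bases before the start of the canonical transcript of the first 3 genes are shown because all 3 were called in HOCl and with E07, with each GC box (GGGCGG or its complement) in capitals; the Eif1 stretch holds none. For Eif5 this start lies inside the annotated gene, which begins further upstream with another transcript. Positions are chr11:100210420-100210669, chr12:111504189-111504438 and chr5:143803280-143803529.
Eif1: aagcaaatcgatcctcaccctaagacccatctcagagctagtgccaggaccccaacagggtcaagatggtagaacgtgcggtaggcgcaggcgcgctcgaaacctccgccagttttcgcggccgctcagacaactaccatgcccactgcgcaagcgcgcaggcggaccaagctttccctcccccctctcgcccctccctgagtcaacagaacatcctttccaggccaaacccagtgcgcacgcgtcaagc
Eif5: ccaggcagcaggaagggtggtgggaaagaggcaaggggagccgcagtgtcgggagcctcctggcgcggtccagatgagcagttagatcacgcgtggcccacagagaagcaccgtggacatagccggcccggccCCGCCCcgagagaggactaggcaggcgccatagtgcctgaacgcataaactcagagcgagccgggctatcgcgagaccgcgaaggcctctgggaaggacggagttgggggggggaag
Eif2ak1: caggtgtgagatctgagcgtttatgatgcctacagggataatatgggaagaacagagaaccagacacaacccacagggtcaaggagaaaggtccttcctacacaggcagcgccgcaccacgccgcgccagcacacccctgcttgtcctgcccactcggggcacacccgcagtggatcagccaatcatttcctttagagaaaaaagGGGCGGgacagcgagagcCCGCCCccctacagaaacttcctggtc

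The 30 bases shown for Eif2ak2 (chr17:79189964-79189993, read 5′ to 3′ on the minus strand, 20 to 49 bases after the start) lie in the first, noncoding exon. The capitals mark the only match in its window to the interferon-stimulated response element core, GAAA repeated after a gap of 2 bases.
Eif2ak2: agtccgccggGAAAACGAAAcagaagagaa

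Windows from 250 bases before to 50 bases after the canonical start of 10495 genes were searched on both strands. That core was present in 3.92% of all windows and, among the 53 members, in those of Eif2ak2 and Eif3a. A GATA site (GATA with A or T before it and A or G after it) was present in 23.7% of all windows and in 7 members, none of which was Eif1, Eif5 or Eif2ak1. The ATF4 composite site TGATGNAAT was present in 0.457% of windows and in no member, and the GC box in 56.2% of windows and in 41 members. These matches describe letters in a window, and no binding was measured.

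Per transcript length, Eif1 was the most abundant member. In Control blood Eif1 stood at 776 ± 82.4 TPM (transcript abundance scaled for length and for library size; SD, n = 11), rank 154 of 10495 genes, followed by the eIF3 subunit Eif3k at 468 TPM, Eif5a at 309 TPM and Eif5 at 301 ± 105 TPM. The helicase Eif4a1 had 249 TPM, whereas the cap-binding protein Eif4e had 15.6 TPM. Among the kinases, Eif2ak1 had 24.8 TPM, Eif2ak3 10.9 TPM, Eif2ak4 5.36 TPM and Eif2ak2 4.50 TPM. The lowest member was the 4E-binding protein Eif4ebp3 at 0.915 TPM. The median member of eIF3 was at 95.6 TPM, of eIF4F and its helpers at 99.0 TPM, of eIF2 at 29.3 TPM and of eIF2B at 19.7 TPM.

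Libraries held 1.19e+07 to 1.59e+07 counted reads (median 1.37e+07). Of the 70 mice with normalised values, 5 correlated less well with the rest (median r 0.925 to 0.933, against 0.945 to 0.973 in the others), namely HOCl mouse 7, D11 mouse 10, D06 mouse 5 and BPR21 mice 11 and 12. Markers of red cell precursors differed between the groups. The 33 erythroid markers in the normalised table, of 34 listed, took 8.47% of counts in Control (range 3.83 to 12.9) and 13.6% in HOCl (9.18 to 20.5). They took 10.4% in D11, 7.99% in E07 (5.80 to 11.2), 12.1% in D06 and 10.7% in BPR21. None of these 33, which had passed the authors' filter on low counts, was at 0 in every mouse of a group. In whole blood, more cells of a type and more RNA per cell cannot be told apart.

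To see what HOCl did to the translation initiation machinery, HOCl mice (n = 11) were compared with Control mice (n = 11). Values are variance-stabilised counts (vst, a log2-like scale), tested with limma, and a gene was called when its false discovery rate (FDR) over all genes was at most 0.05 and its fold change at least 1.3. The start codon factor Eif1, the GTPase-activating factor Eif5 and the haem-regulated kinase Eif2ak1 rose, and the remaining members did not pass the test. In all, 521 of 10508 genes were called (4.96%; 4.79% higher and 0.171% lower), beside 3 of 53 members, all higher. The median log2 difference was 0.02 over members and −0.02 over all genes, with 31 members above 0 and 22 below.

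Eif1 lay at 12.26, 12.67 and 13.40 vst units (lowest, median and highest) in Control and at 12.73, 13.44 and 14.90 in HOCl. All 11 HOCl mice exceeded the Control median and 7 of 11 exceeded every Control mouse, although the ranges overlapped. The log2 difference was 0.74 (SE 0.18, FDR 0.0120), or 1.67-fold.

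Eif5 lay at 12.02, 13.16 and 15.06 in Control and at 12.98, 14.59 and 16.51 in HOCl. Of the HOCl mice, 10 lay above the Control median, but 1 Control mouse (mouse 12, at 15.06) stood among the high HOCl values, so that only 1 HOCl mouse exceeded all controls. The log2 difference was 1.22 (SE 0.32, FDR 0.0199), the largest of the 53 members, or 2.32-fold.

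Eif2ak1 lay at 9.30, 9.63 and 9.88 in Control and at 9.82, 10.29 and 12.28 in HOCl. All 11 HOCl mice exceeded the Control median and 9 of 11 exceeded every Control mouse. The log2 difference was 0.83 (SE 0.19, FDR 0.00879), or 1.78-fold. HOCl mouse 7 was the highest HOCl mouse for Eif1, Eif5 and Eif2ak1. That mouse is the only 1 of the 5 less correlated mice in this comparison. Without it, the log2 differences were 0.60 for Eif1 (FDR 0.00808), 1.01 for Eif5 (FDR 0.0233) and 0.65 for Eif2ak1 (FDR 0.00300). Leaving out each mouse in turn changed none of these 3 calls. The 28 erythroid markers that were also higher in HOCl, of 33 tested, moved with these members, and so did 5 of 27 interferon-stimulated genes, 5 of 13 platelet markers and 3 of 14 neutrophil markers; their part in the result was not tested.

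**Figure D1:**
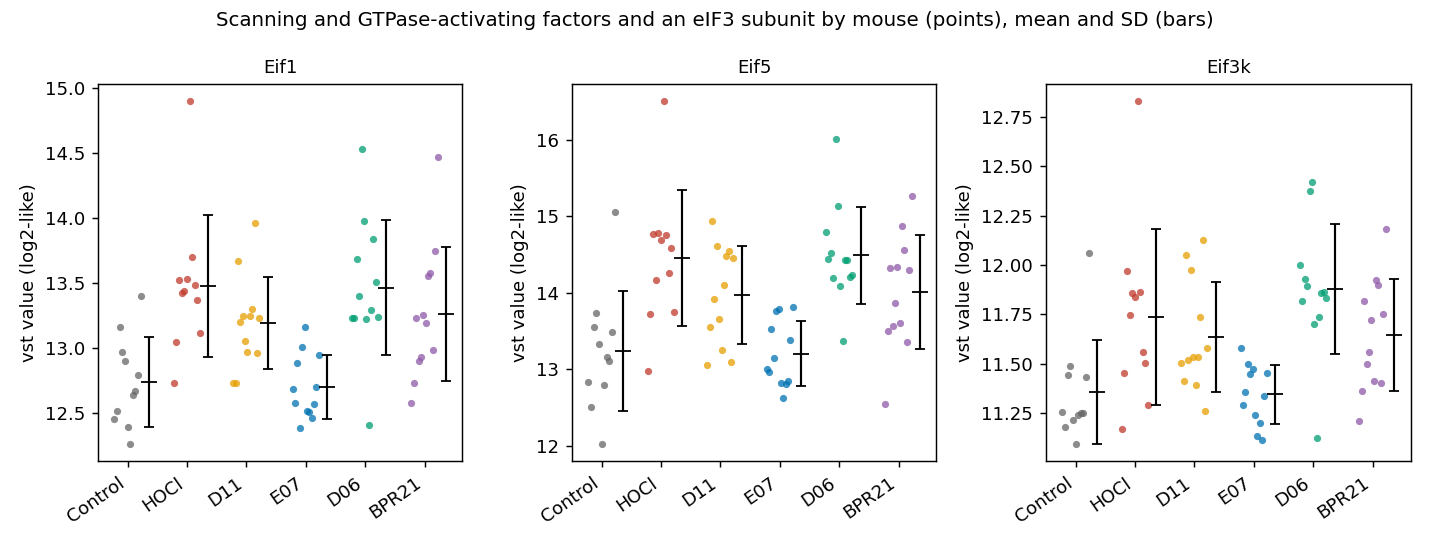
Variance-stabilised values (y axis, log2-like units) of Eif1, Eif5 and Eif3k in each of the 70 mice (points), by group (x axis), with mean and SD beside the points. HOCl and D06 mice sit highest for Eif5 (means 14.45 and 14.49) and E07 mice overlap the Control mice (means 13.21 and 13.24).

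Of the kinases, Eif2ak1 alone passed the test in HOCl. Eif2ak2 lay at 7.10, 7.92 and 8.27 in Control and at 7.74, 8.07 and 8.69 in HOCl, a log2 difference of 0.26 (SE 0.13, FDR 0.273). Eif2ak3 lay at 8.31, 8.71 and 9.11 against 8.24, 8.74 and 8.99, a difference of −0.07 (FDR 0.748). Eif2ak4 lay at 7.61, 8.20 and 8.70 against 7.35, 7.99 and 8.25, a difference of −0.21 (FDR 0.353). The Control and HOCl ranges of these 3 kinases overlapped, and none passed the test.

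Subunits of the large complexes had small values. Among 14 eIF3 subunits, 7 were above 0 and 7 below, and the largest value belonged to Eif3k, a peripheral subunit (log2 difference 0.38, SE 0.14, FDR 0.138). The largest values in the other sets were −0.08 for Eif2s2, the beta subunit of eIF2 (FDR 0.740), −0.14 for Eif2b1, the alpha subunit of eIF2B (FDR 0.644), −0.12 for Eif4e (FDR 0.583), 0.22 for the 4E-binding protein Eif4ebp1 (FDR 0.404) and 0.07 for Eif2d, an initiator tRNA factor (FDR 0.700). Eif3k passed only when Control mouse 12 was left out (log2 difference 0.45, FDR 0.0396).

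The question for E07 was whether these values differed from those of mice given HOCl alone. With E07, Eif1, Eif5, Eif2ak1 and Eif3k fell relative to HOCl (n = 12 against 11), and 829 of 10508 genes were called (7.89%; 7.01% lower and 0.876% higher), beside 4 members lower and none higher. The 3 members called in HOCl against Control were among these 4, but both comparisons use the same HOCl mice, so their opposite signs are not independent.

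Eif5 lay at 12.63, 13.08 and 13.81 in E07, a log2 difference from HOCl of −1.25 (SE 0.26, FDR 0.00129). All 12 E07 mice lay below the HOCl median and 5 below every HOCl mouse. Eif1 lay at 12.38, 12.63 and 13.16, a difference of −0.78 (SE 0.16, FDR 0.00119), with 12 of 12 mice below the HOCl median and 8 below every HOCl mouse. Eif2ak1 lay at 9.37, 9.57 and 10.13, a difference of −0.82 (SE 0.19, FDR 0.00388), with 12 of 12 below the HOCl median and 9 below every HOCl mouse. The separation from HOCl was thus widest for Eif2ak1 and Eif1 by count of mice, and widest for Eif5 by size.

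Eif3k lay at 11.11, 11.35 and 11.58 in E07 and at 11.17, 11.75 and 12.83 in HOCl, a difference of −0.39 (SE 0.13, FDR 0.0366), close to the fold threshold. All 12 E07 mice were below the HOCl median, but 2 were below every HOCl mouse. The call was lost in 11 of 23 fits that left out a single mouse. Among these was the fit without HOCl mouse 7 (−0.28, FDR 0.0373), where the fold was too small. That mouse is the only 1 of the 5 less correlated mice in this comparison. By FDR alone, 1580 genes (15%) and 8 members passed, the further members being the eIF3 subunits Eif3c (−0.29, FDR 0.0126), Eif3a (−0.27, FDR 0.0152) and Eif3e (0.23, FDR 0.0418), and Eif2ak2 (−0.33, FDR 0.0496). Eif2ak3 (0.13, FDR 0.357) and Eif2ak4 (0.05, FDR 0.785) did not pass. Lower in E07 beside these members were 30 of 33 erythroid markers, 9 of 27 interferon-stimulated genes, 10 of 13 platelet markers, 3 of 17 monocyte markers and 2 of 14 neutrophil markers, whereas 10 of 14 B cell and 2 of 7 eosinophil markers were higher; their part in the result was not tested.

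**Figure D2:**
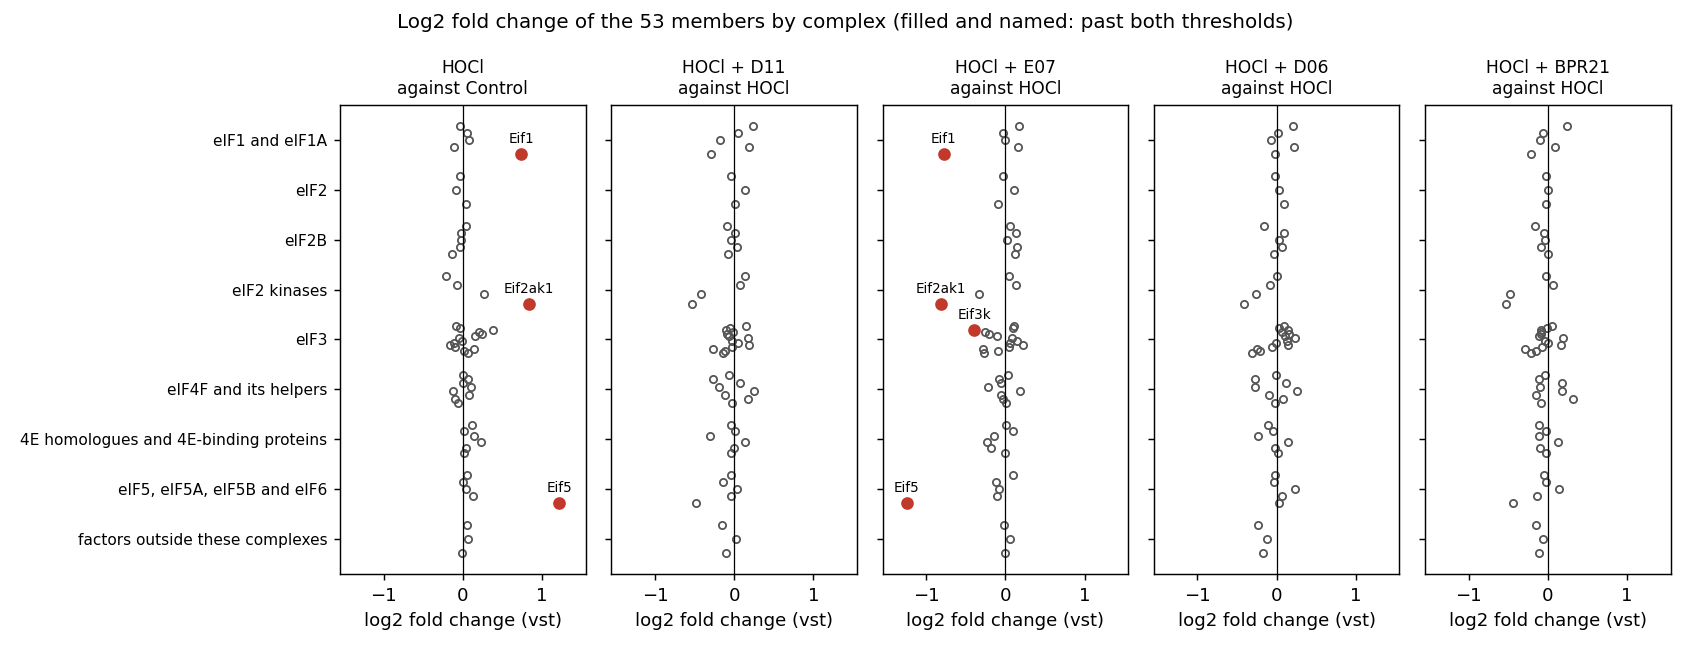
Log2 differences of the 53 members (points, x axis, vst scale), by complex (y axis) and comparison (panels); filled, named points passed both thresholds. Most members lie near 0 in every panel, and only Eif1, Eif2ak1, Eif5 and, with E07, Eif3k are filled.

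Called genes were few with D11 (6, 0.0571%), D06 (14, 0.133%) and BPR21 (67, 0.638%), and no member was among them. At an unadjusted p below 0.05 there were 10 of 53 members beside 1483 of 10508 genes for D11. The same counts were 12 beside 1338 for D06 and 11 beside 1474 for BPR21. They were 5 beside 1885 in HOCl against Control and 14 beside 2996 with E07. With D11, D06 and BPR21, edgeR called no member, and DESeq2 called Eif2ak2 with D11 and BPR21. The D11, D06 and BPR21 comparisons also share the HOCl mice. Eif5 lay at 13.05, 14.01 and 14.94 with D11 (log2 difference from HOCl −0.48, FDR 0.463), at 13.37, 14.43 and 16.01 with D06 (0.04, FDR 0.970) and at 12.54, 14.08 and 15.27 with BPR21 (−0.44, FDR 0.548). These ranges overlapped that of HOCl almost throughout. For Eif1 the differences were −0.29 with D11 (FDR 0.468), −0.02 with D06 (FDR 0.983) and −0.22 with BPR21 (FDR 0.681).

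Eif2ak1 differed from HOCl by −0.53 with D11 (SE 0.21, FDR 0.262), −0.42 with D06 (SE 0.22, FDR 0.426) and −0.53 with BPR21 (SE 0.20, FDR 0.230). On the vst scale its medians were 9.83, 9.98 and 9.86, between those of Control and HOCl. On that scale 6, 2 and 5 of 12 mice lay below every HOCl mouse. In TPM the medians were 21.7, 20.9 and 23.5, below the 24.0 of Control and the 30.5 of HOCl. For Eif2ak2, D11 mice lay at 7.20, 7.73 and 8.04, a difference of −0.42 (SE 0.11, FDR 0.116), with 12 of 12 below the HOCl median. BPR21 mice lay at 7.17, 7.69 and 8.10, a difference of −0.47 (SE 0.13, FDR 0.0716), with 11 of 12 below the HOCl median. With D06 the difference was −0.27 (FDR 0.368). The BPR21 value passed without BPR21 mouse 11 (−0.51, FDR 0.0430), without the 5 less correlated mice (−0.52, FDR 0.0448) and in a fit of all 6 groups (FDR 0.0170).

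**Figure D3:**
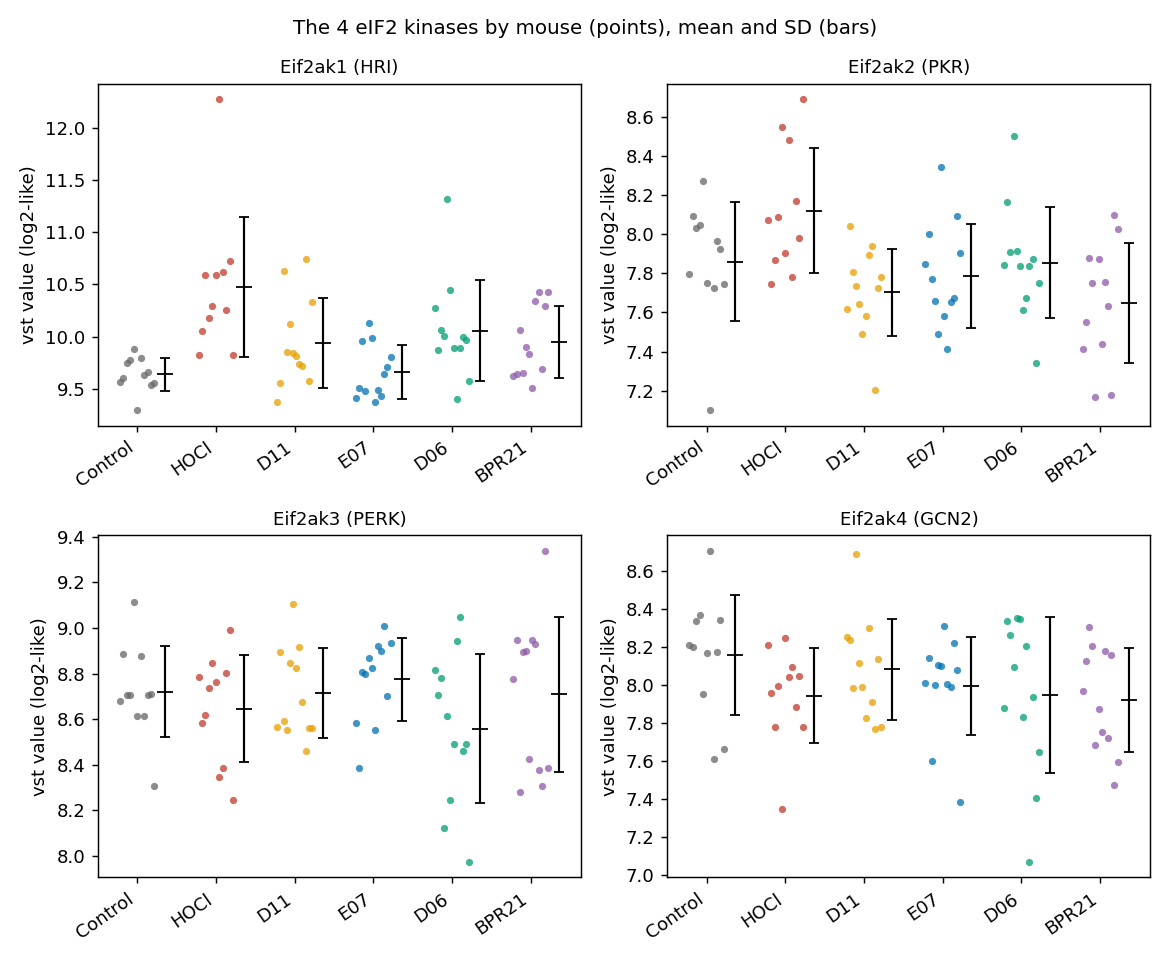
Variance-stabilised values (y axis, log2-like units) of the 4 eIF2 kinases in each of the 70 mice (points), by group (x axis), with mean and SD. Eif2ak1 is highest in HOCl (mean 10.47, against 9.64 in Control and 9.66 in E07), and Eif2ak3 and Eif2ak4 ranges overlap between all groups.

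A moderated F test asked whether any group differed from another. Over the 6 groups it called 1918 genes (18.3%) and 11 members: Eif5 (FDR 0.00022), Eif1 (FDR 0.00032), Eif2ak1 (FDR 0.00137), Eif3k (FDR 0.00204), Eif3a, Eif4g2, Eif2ak2, Eif3h, Eif4g3, Eif1b and Eif4ebp2. The spread of group means was small for the last members. Eif4g2, a scaffold that does not bind Eif4e, had means from 12.57 in E07 to 12.80 in BPR21, Eif1b from 8.76 in HOCl to 9.00 in D11, and Eif4ebp2, a 4E-binding repressor, from 10.81 in D11 to 11.12 in HOCl. Among the 4 groups given HOCl with D11, E07, D06 or BPR21, 1161 genes (11%) and 5 members differed, namely Eif5 (FDR 0.00523), Eif3k (FDR 0.00666), Eif1 (FDR 0.00792), Eif4g2 (FDR 0.0366) and Eif5a (FDR 0.0478), whereas Eif2ak1 (FDR 0.241) and Eif2ak2 (FDR 0.502) did not pass. E07 had the lowest mean of the 4 for Eif5 (13.21, against 14.49 in D06) and Eif1 (12.70, against 13.46 in D06).

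How libraries are scaled moved these values. The vst values rest on size factors that equalise the typical gene. Size factors recomputed here from the counts were lower in HOCl mice (mean 0.938, n = 12) than in Control mice (mean 1.29, n = 11). Scaling instead to the total count, as log2(CPM + 1), where CPM is a gene's share of all counts, shifted the median of all genes by −0.47 in HOCl against Control and by 0.49 in E07 against HOCl. On that scale Eif5 (0.74, FDR 0.0104) and Eif2ak1 (0.45, FDR 0.0348) were still called higher in HOCl, Eif1 did not pass (0.26, FDR 0.0812), and 28 members were called lower, beside 48.9% of all genes. With E07, Eif5 (−0.75, FDR 0.00132) and Eif2ak1 (−0.40, FDR 0.0175) were called lower, Eif1 passed the FDR but not the fold (−0.28, FDR 0.0247), Eif3k changed sign (0.10, FDR 0.371) and 37 members were called higher, beside 62.5% of all genes. Thus Eif5 and Eif2ak1 kept direction and call under both scalings, and Eif1 its direction.

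**Figure D4:**
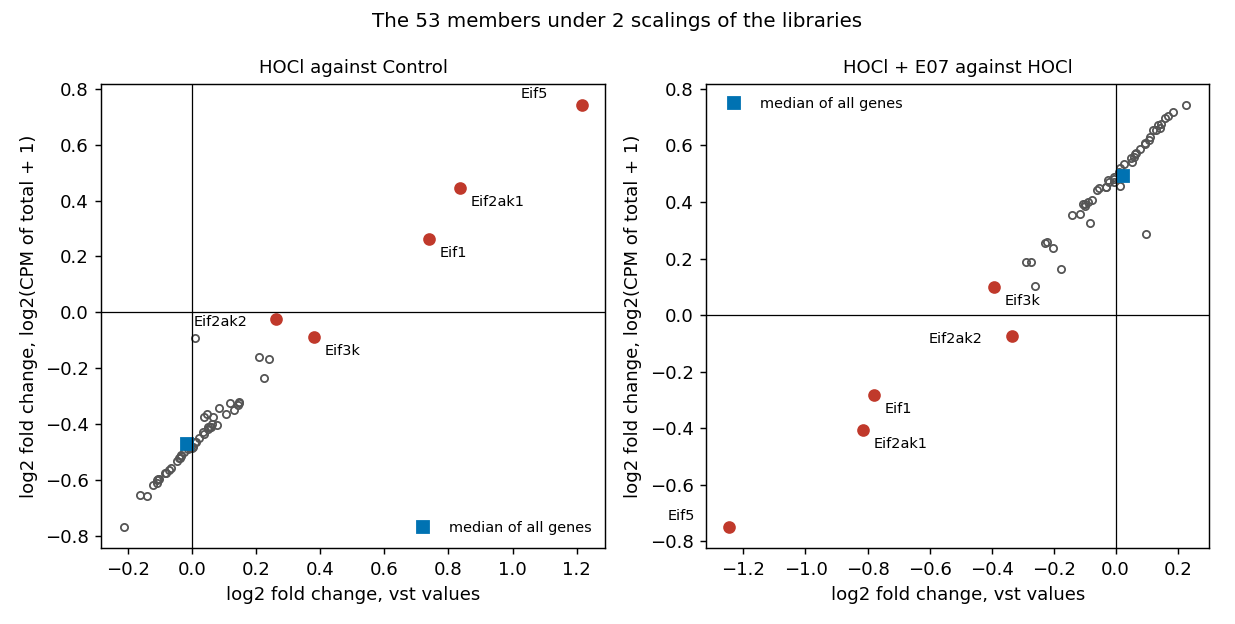
Log2 differences of the 53 members on the vst scale (x axis) and after total-count scaling (y axis), for HOCl against Control and E07 against HOCl; the square is the median of all genes. The median moves to −0.47 and 0.49 on the y axis, while Eif5, Eif2ak1 and Eif1 stay on the same side of 0 on both axes.

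Members were also related to erythroid and interferon scores, each the mean standardised value of its marker list, which holds no member, in a model with group as a term (70 mice). On the erythroid score 2246 genes (21.4%) and 16 members passed, 11 of them rising with the score (13% of all genes) and 5 falling (8.42%). The steepest slopes, in vst units per unit of score, were those of Eif5 (0.93, SE 0.03), Eif1 (0.54, SE 0.03), Eif2ak1 (0.48, SE 0.04), Eif3k (0.37, SE 0.03) and Eif3j2 (0.32, SE 0.04). The smallest were those of Eif2b1 (−0.17), Eif3g (−0.13), Eif1ad (−0.10), Eif2a (−0.10, FDR 0.0870) and the exon junction helicase Eif4a3 (−0.09). Without the 5 less correlated mice, Eif3g (−0.06, FDR 0.280), Eif1ad (−0.05, FDR 0.474) and Eif4a3 (−0.09, FDR 0.0571) did not pass. With both scores in a single model, Eif1ad (FDR 0.0700) and Eif4a3 (FDR 0.0607) did not pass. Within the single groups the slope of Eif5 ran from 0.82 to 1.14 and that of Eif1 from 0.40 to 0.64. The 4 members called with E07, 3 of them also called in HOCl, had the steepest slopes. With total-count scaling the balance turned, with 3 members rising and 44 falling. The 3 rising were Eif5 (0.67), Eif2ak1 (0.16) and Eif1 (0.14), and Eif3k did not pass (−0.04, FDR 0.360). No share of all genes is given on that scale, so the turn cannot be read as particular to the members.

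The slope of Eif2ak1 was 0.08 in Control (FDR 0.708), 0.76 in HOCl, 0.51 in D11, 0.48 in E07, 0.61 in D06 and 0.36 in BPR21. A test of group by score, added after these values were seen, found 17 of 10508 genes (0.162%) with differing slopes, among them Eif2ak1 (FDR 0.0257) and no other member. Without HOCl mouse 7 the HOCl slope was 0.46 and the test no longer passed (FDR 0.155), nor did it without Control mouse 12 (FDR 0.151) or D06 mouse 5 (FDR 0.0585). It also did not pass with total-count scaling (FDR 0.698) or without the 5 less correlated mice (FDR 0.732).

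On the interferon score 1012 genes (9.63%) and 6 members passed, 5 of them rising with the score (7.58% of all genes) and 1 falling (2.05%), namely Eif5 (0.57), Eif1 (0.41), Eif2ak1 (0.35), Eif2ak2 (0.31, SE 0.06, FDR 0.00026), Eif3k (0.22) and Eif2a (−0.18). Within groups the 2 scores were themselves correlated (r 0.49, rho 0.45, as a description). With both scores in a single model, Eif2ak2 was the only member with an interferon slope (0.31, FDR 0.00523), and its erythroid slope was 0.01 (FDR 0.942); Eif5 (−0.10, FDR 0.464), Eif1 (0.05, FDR 0.810) and Eif2ak1 (0.02, FDR 0.950) had none that passed. Eif2ak2 was likewise the only member to pass without the 5 less correlated mice. With total-count scaling 43 members rose with the interferon score and 1 fell, again with no share of all genes given on that scale. Eif2ak2 kept its direction (0.58), while Eif5 (−0.35, FDR 0.00188) and Eif2a (0.33, FDR 0.0159) turned, and Eif1 (−0.04) and Eif2ak1 (−0.01) did not pass.

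**Figure D5:**
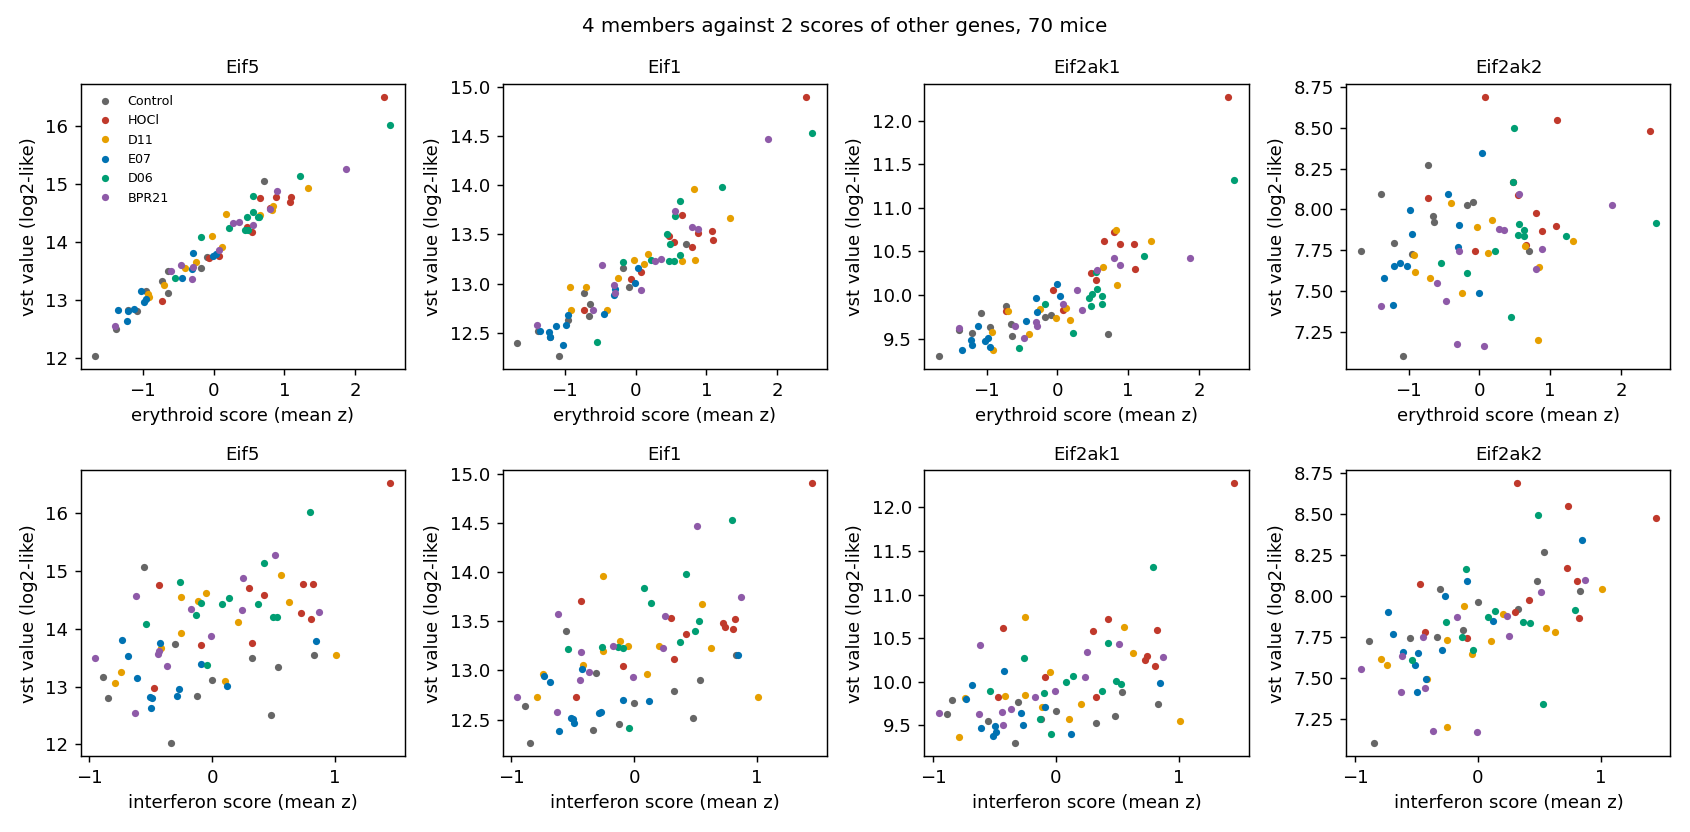
Variance-stabilised values (y axis, log2-like units) of Eif5, Eif1, Eif2ak1 and Eif2ak2 against the erythroid score (upper row) and the interferon score (lower row) in 70 mice (points, coloured by group). Eif5 follows the erythroid score with a slope of 0.93, and Eif2ak2 the interferon score with a slope of 0.31.

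Of the genes around the factors, counts are to be read against the 4.79% of all genes called higher in HOCl and the 7.01% called lower with E07. The stress response list (21 tested of 22) held 1 gene higher in HOCl, Ppp1r15a (GADD34, which brings the phosphatase to eIF2; log2 difference 1.03, FDR 0.0334), and 5 lower with E07, Ppp1r15a among them (−1.14, FDR 0.00214). Among 16 other initiation and recycling factors, 3 were higher in HOCl, the poly(A)-binding proteins Pabpc1 (1.03, FDR 0.0114) and Pabpc4 (1.00, FDR 0.0111) and their partner Paip2 (0.66, FDR 0.0361). With E07 these 3 were lower (−1.26, −1.04 and −0.67) and 1 gene was higher, and with BPR21 Cyfip1, which binds Eif4e, was lower (−0.40, FDR 0.0438). Of 11 elongation and termination factors, Eef1d, an eEF1 exchange subunit, was higher in HOCl (0.91, FDR 0.0109) and lower with E07 (−0.96, FDR 0.000805). No gene of the kinase partners (8) or of mTORC1 and the eIF4E kinases (14 of 15) was called in any comparison. The 5 genes named as higher in HOCl also rose with the erythroid score. The slopes were 0.84 for Ppp1r15a, 0.88 for Pabpc1, 0.84 for Pabpc4, 0.51 for Paip2 and 0.63 for Eef1d. In a separate model all 5 rose with the interferon score too, with slopes of 0.57, 0.61, 0.56, 0.29 and 0.50 in the same order. The part of erythroid or interferon-linked RNA in their differences was not tested.

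Some values are uncertain because reads may be shared. Eif2ak1 shares 2578 exonic bases with Aimp2 on the opposite strand, and the strand setting used in counting was not stated; Aimp2 itself differed by −0.02 in HOCl (FDR 0.956). Eif5 shares 709 exonic bases with the protein-coding Gm58608 on the same strand, and Eif1 shares 451 and 405 with the noncoding Gm74298 and Gm74295 on the opposite strand. Eif4ebp3, whose canonical transcript has 738 bases, shares 501 exonic bases with the protein-coding Maskbp3 on the same strand. Its low TPM may therefore reflect how shared reads were counted, which was not tested. The pairs Eif1 and Eif1b, Eif3j1 and Eif3j2, Eif1a and Eif1ax, Eif4a1 and Eif4a2, and Eif5a and Eif5a2 are close copies.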

How the data were processed

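Whole-blood RNA of 71 mice was sequenced after poly(A) selection and globin depletion with a strand-specific kit. Per the study's methods, the authors trimmed reads with Cutadapt, aligned them to mm39 with STAR and counted them per gene with featureCounts; the versions of these 3 tools were not given in the sources used here. The deposited counts cover 55416 genes. The authors' deposited log2-like values were made from counts by DESeq2's vst for 10508 protein-coding genes in 70 mice.

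Here, limma 3.58.1 (R 4.3.3) was run on the vst values, as the study did, with Benjamini-Hochberg adjustment over all genes (FDR at most 0.05, fold at least 1.3). Moderated F tests and slopes on marker scores used FDR alone. Alternatives were edgeR 4.0.16, DESeq2 1.42.0, log2(CPM + 1), robust variances, a mouse-number block and leaving mice out. TPM used lengths of GENCODE canonical transcripts. The fits were tested on simulated data with independent noise for each gene. The shift of the typical gene between scalings was not simulated, and no result here rests on those runs. Members, lists and tests were chosen with earlier results of these data known. Named genes were members called in any comparison, all 4 kinases, the largest value in each complex, the 5 highest and lowest slopes, and up to 5 called pathway genes per comparison.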

Additional observations from a re-analysis of the deposited data

Results flagged for a closer look

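The erythroid slope of Eif2ak1 differed between the 6 groups (F = 7.29, FDR 0.0257, limma moderated F over all genes, 70 mice). The slope was positive in all 6 groups, from 0.08 vst units per unit of score in Control to 0.76 in HOCl. It rests on few mice: HOCl mouse 7 had the highest Eif2ak1 value (12.28), and Control mouse 12 had the highest Control erythroid score (0.71) with an Eif2ak1 value of 9.55. The F value was 5.12 without the former (FDR 0.155) and 4.34 without the latter (FDR 0.151). With total-count scaling the test did not pass (FDR 0.698). The test was added after the slopes were seen.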

How the results depend on the processing

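In HOCl against Control, the 3 called members became 30 with total-count scaling and 0 with the mouse number as a block, and 3 to 4 when 1 mouse was left out. Of those 30, 28 were lower and 2 higher, beside 48.9% of all genes called lower and 3.11% higher. In HOCl + E07 against HOCl, 4 became 39 with total-count scaling and 8 by FDR alone (3 to 5 with 1 mouse out). Of those 39, 37 were higher and 2 lower, beside 62.5% of all genes called higher and 3.09% lower. For HOCl + D11 against HOCl the count was 1 by DESeq2 and 0 with any mouse left out, and HOCl + D06 against HOCl was at 0 in every alternative run. For HOCl + BPR21 against HOCl it was 1 by DESeq2, in the fit of all 6 groups and without the 5 less correlated mice, and 0 to 1 with 1 mouse out. The 11 members of the test over 6 labelled groups became 44 with total-count scaling, and the 5 of the 4 groups given HOCl with another agent became 36, or 3 with robust variances. Members with a slope on the erythroid score numbered 47 with total-count scaling (3 rising, 44 falling). Those on the interferon score numbered 44 with total-count scaling (43 rising, 1 falling). They numbered 1 without the 5 less correlated mice or with both scores in a single model. For the F tests and slopes with total-count scaling, no share of all genes is given. Those counts cannot be read as particular to the members. The test of the erythroid slope of Eif2ak1 between groups did not pass with total-count scaling (F 4.38, FDR 0.698). Nor did it pass without the 5 less correlated mice (F 3.49, FDR 0.732). Its F value was 4.34 to 9.415 with 1 mouse out. The cause was not tested.

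Some values changed sign. In HOCl against Control, Eif2d was −0.013 by edgeR with no filter, and with total-count scaling Eif2ak2 was −0.024, Eif3k −0.089, Eif4ebp1 −0.23 and Eif2d −0.38. In E07 against HOCl, Eif3k was 0.10 with total-count scaling and Eif2ak4 ranged from −0.0075 to 0.11 with 1 mouse out. With D06, Eif2ak4 was −0.00133 by edgeR, −0.022 with no filter, −0.10 with total-count scaling, −0.019 with the block, −0.023 without the 5 mice, and −0.056 to 0.084 with 1 mouse out. With BPR21, Eif2ak4 was 0.041 with total-count scaling, 0.063 without the 5 mice, and −0.084 to 0.017 with 1 mouse out. The erythroid slope of Eif3k was −0.038 with total-count scaling. Interferon slopes with total-count scaling were 0.33 for Eif2a, 0.35 for Eif3e, 0.23 for Eif4e, 0.49 for Eif3g, 0.57 for Eif2b1, −0.00607 for Eif2ak1, −0.036 for Eif1 and −0.35 for Eif5, and with both scores 0.022 for Eif2b1, −0.042 for Eif3k and −0.10 for Eif5.

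Mouse numbers are shared between groups but mark different animals. The mean r of same-numbered mice was 0.01 to 0.06, against −0.004 to 0.0005 for other pairs. Single same-numbered pairs ran from −0.42 to 0.61, with 4 of 10 over 0.1 in HOCl against Control. Whether same-numbered mice deviated together was not tested. With the number as a block, Eif1 (0.69, FDR 0.0831), Eif5 (1.14, FDR 0.122) and Eif2ak1 (0.84, FDR 0.0648) were not called in HOCl against Control. With E07 the block left 3 members, without Eif3k.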

Other observations

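The 53 members together took 0.647% of counts in Control, 0.594% in HOCl, 0.572% in D11, 0.640% in E07, 0.563% in D06 and 0.574% in BPR21. Eif1 and Eif5 alone took 0.152% in Control, 0.225% in HOCl, 0.179% in D11, 0.148% in E07, 0.213% in D06 and 0.183% in BPR21.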
